A study of Mus musculus with 60 samples.

Results

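The genes described here are 8 members of the tumour necrosis factor (TNF) superfamily in mouse microglia, chosen by name from the 22869 gene symbols of the deposited count table. Earlier results of these data were known when they were chosen, so counts of members called below only describe these 8 genes. They comprise 4 ligands (Tnf, Tnfsf13b, Tnfsf9 and Tnfsf8) and 4 receptors (Tnfrsf1a, Tnfrsf1b, Tnfrsf11a and Tnfrsf17). The 60 libraries hold messenger RNA of microglia, the tissue macrophages of the brain, from mice of the C57BL/6N strain. Untreated animals were taken on embryonic day 18 (E18; 4 libraries titled male and 3 titled female), postnatal day 4 (P4; 4 and 4) and P14 (10 and 10). At P60 there were 7 male and 6 female libraries treated with lipopolysaccharide (LPS, an endotoxin of Gram-negative bacteria that is sensed through TLR4), and 5 male and 7 female libraries given saline. The labels name no transgene or deletion, and they give neither the LPS dose nor the interval to collection.

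TNF superfamily ligands are made as membrane proteins that act as trimers and can be shed from the cell. Their receptors either carry a death domain, which can lead to cell death, or recruit TRAF adaptors, which activate NF-kB and kinase cascades. Tnf encodes TNF itself, which microglia and macrophages release after contact with bacterial products. Tnfrsf1a encodes TNFR1, the widely expressed receptor with a death domain. Tnfrsf1b encodes TNFR2, which lacks one and is prominent on immune cells, microglia included. Tnfsf13b encodes BAFF, a survival factor of B cells, and Tnfrsf17 encodes BCMA, a receptor for BAFF and for its relative APRIL that is best known from plasma cells. Tnfsf9 encodes the ligand of CD137, a co-stimulatory receptor of T cells, and Tnfsf8 the ligand of CD30. Tnfrsf11a encodes RANK, the receptor through which RANKL drives osteoclast formation from the myeloid lineage.

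Promoter sequence is shown for the 2 members that rose with LPS and are in the RefSeq promoter table, Tnf and Tnfrsf11a, and for Tnfsf13b, which rose at P60 with no LPS response past the test. The windows are the 250 bases before the annotated start in RefSeq on GRCm38.p6, written 5′ to 3′ on the strand of the gene. Of the 8 members 7 had an entry, and Tnfsf9 did not. Capitals mark the NF-kB-type motif (GGG, any 5 bases, then CC), searched on both strands, and overlapping matches are merged. The Tnf window is chr17:35202008-35202257 on the minus strand, that of Tnfrsf11a is chr1:105780473-105780722 on the plus strand, and the first of 2 windows of Tnfsf13b is chr8:10006217-10006466 on the plus strand.
Tnf: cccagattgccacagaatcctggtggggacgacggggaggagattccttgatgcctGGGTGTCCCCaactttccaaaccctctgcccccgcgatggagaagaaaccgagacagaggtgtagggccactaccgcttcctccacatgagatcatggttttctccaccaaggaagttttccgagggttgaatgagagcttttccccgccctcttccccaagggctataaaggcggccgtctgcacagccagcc
Tnfrsf11a: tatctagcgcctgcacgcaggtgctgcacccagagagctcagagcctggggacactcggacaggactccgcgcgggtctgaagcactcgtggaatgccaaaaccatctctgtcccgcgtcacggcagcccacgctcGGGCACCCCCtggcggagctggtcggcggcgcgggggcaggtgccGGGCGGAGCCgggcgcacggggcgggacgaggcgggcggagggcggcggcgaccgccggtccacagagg
Tnfsf13b: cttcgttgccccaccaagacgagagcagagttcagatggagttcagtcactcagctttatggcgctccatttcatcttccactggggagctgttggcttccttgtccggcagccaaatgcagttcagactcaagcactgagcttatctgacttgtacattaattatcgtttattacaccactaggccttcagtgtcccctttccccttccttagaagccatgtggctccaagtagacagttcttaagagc
The Tnf window held the motif once, as GGGTGTCCCC at position -194 from the start, where it matches on both strands. The window of Tnfrsf11a held it as GGGCACCCCC at position -114, again on both strands, and as GGGCGGAGCC at position -69 on the plus strand. Neither window of Tnfsf13b held it. Tnfrsf1a had a match at position -216 and Tnfrsf1b had overlapping matches at -77, -76 and -71, whereas Tnfrsf17 and Tnfsf8 had none. The motif is loose, and 45.8% of 32851 promoter windows of this length held it. The ETS-type motif GAGGAA, bound by the myeloid factor PU.1 among others, was in 23.3% of the windows, those of Tnf, Tnfrsf17 and Tnfrsf1b included. A match is a run of letters and does not show that a factor binds there.

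Library totals ran from 802016 to 3497454 counts with a median of 1907007.5. Levels below are CPM, the counts of a gene scaled to a library of 1e+06 counts, and changes are log2 fold changes ± SE from edgeR's quasi-likelihood test with the sexes weighted equally. A gene is called at a Benjamini-Hochberg adjusted p under 0.05 over all genes tested. Whether libraries stem from separate animals is not stated in the labels, and p-values therefore reflect only how these libraries vary. The summed level of 8 microglial markers had medians of 4178 CPM at E18, 12919.7 at P4, 22349.9 at P14 and 31366 in P60 saline libraries, and all 8 were present at each stage. Neuronal markers had medians of 1704, 129.5, 45.3 and 17.4 CPM at the same stages. In a preparation of this kind fewer cells of a type and less RNA per cell cannot be told apart. Ttr, a choroid plexus transcript, took over 10% of the counts in M_E18 3, M_E18 4 and F_P60_Sal 6. The library labelled M_E18 4 had 0 Y-linked counts and 132 CPM of Xist, between the ranges of the sexes. The other 29 libraries titled male had 2.13 to 27.5 CPM of Xist, and the 30 titled female 1091 to 3848 CPM. The sample descriptions carry a date, whose meaning they do not state, and no date is shared by stages or by LPS and saline libraries, so neither stage nor treatment can be told apart from date.

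**Figure D1:**
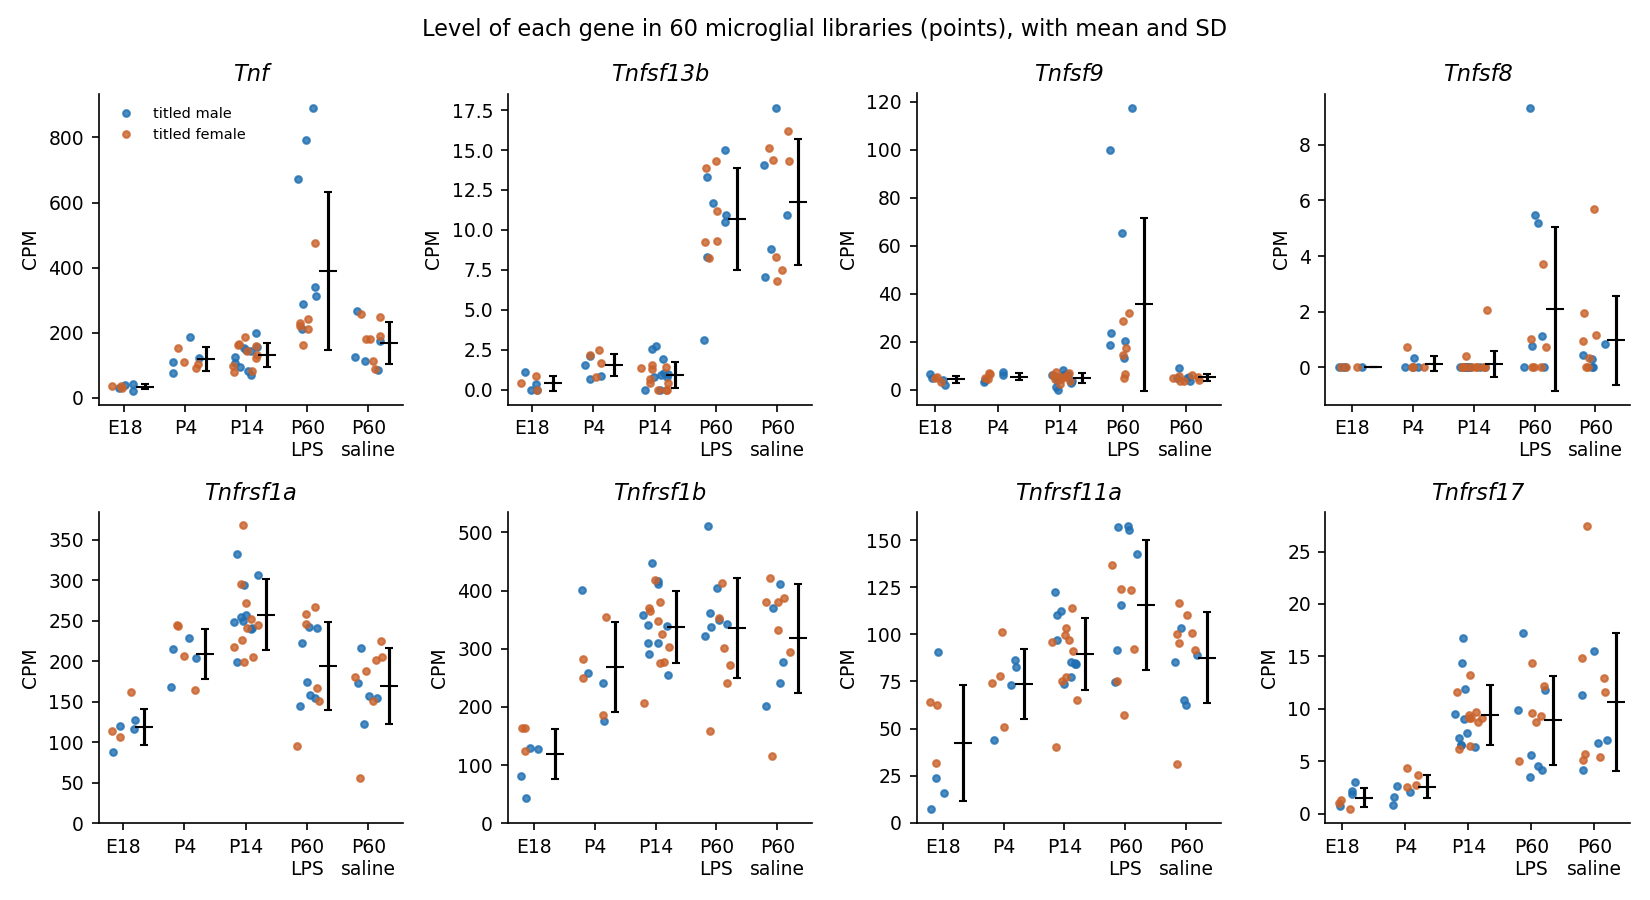
CPM of the 8 genes (vertical axes, one panel each) in every library, by stage and, at P60, treatment; blue points are libraries titled male and orange ones titled female, and the bar beside each group is the mean with its SD. Tnf and Tnfsf9 are highest in LPS libraries, Tnfsf13b is near 0 before P60, and Tnfsf8 has counts in 20 of 60 libraries.

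The 8 genes spanned more than 2 orders of magnitude in level. In P60 saline libraries, per kilobase of transcript, Tnf led with 103 CPM, followed by Tnfrsf1b with 83.2 and Tnfrsf1a with 78.5. Tnfrsf11a stood at 17.4 CPM per kilobase and Tnfrsf17 at 13.1. Tnfsf9 at 3.90, Tnfsf13b at 2.47 and Tnfsf8 at 0.255 CPM per kilobase formed the low end. The 3 leading genes lie within the spread between libraries of each other. Before division by transcript length Tnf alone had an SD of 64.6 around its mean of 169 CPM. That mean is the 103 CPM per kilobase given above. Their depth differs as well. Tnfrsf1b gathered 31988 counts over the 60 libraries, Tnfrsf1a 22258, Tnf 17309 and Tnfrsf11a 9109, against 923 for Tnfsf9, 777 for Tnfrsf17, 503 for Tnfsf13b and 50 for Tnfsf8. The last did not pass the filter on low counts, so 7 of the 8 genes were tested.

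From E18 to P4 the ligands Tnf and Tnfsf13b and all 4 receptors rose, and Tnfsf9 did not pass the test. That is 6 of 7 tested members up and 0 down, at a step where 25.5% of the 13853 tested genes were called higher and 22.7% lower. Tnf had the largest change. Its level ran from 77.3 to 188 CPM at P4 with a median of 110.0 (n = 8), against 22.7 to 42.4 CPM with a median of 37.4 at E18 (n = 7). Every P4 library lay above every E18 library, and the log2 fold was 1.86 ± 0.29 (edgeR adjusted p = 1.56e-06). Tnfsf13b rose by 1.68 ± 0.55 (edgeR adjusted p = 0.0109) on few reads, 28 counts in all 8 P4 libraries together and 7 counts in the E18 libraries. Tnfsf9 stayed between 3.11 and 7.42 CPM at P4 and between 1.79 and 6.57 CPM at E18, and these ranges overlap.

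Among the receptors Tnfrsf1b changed most at this step. It ran from 176 to 401 CPM at P4 with a median of 254, against 43.8 to 164 CPM with a median of 128 at E18, with no overlap (log2 fold 1.30 ± 0.22, edgeR adjusted p = 7.57e-06). Tnfrsf1a had 164 to 244 CPM at P4 with a median of 211, against 87.6 to 162 CPM with a median of 116 at E18, again without overlap (0.90 ± 0.19, edgeR adjusted p = 1.77e-04). Tnfrsf11a had 44.0 to 101 CPM at P4, against 7.30 to 90.9 CPM at E18 (0.93 ± 0.28, edgeR adjusted p = 0.00537). Its E18 libraries ranged widely, and the lowest values, 15.6 and 7.30 CPM, came from M_E18 3 and M_E18 4. Without these libraries of over 10% Ttr its change was 0.51 (edgeR adjusted p = 0.0889), that of Tnfsf13b 1.40 (edgeR adjusted p = 0.0568), and 3 members remained called, Tnf, Tnfrsf1a and Tnfrsf1b. The call of Tnfrsf11a also ended without F_E18 2 (0.70, edgeR adjusted p = 0.0526) and without the second E18 date (0.62, edgeR adjusted p = 0.0942). Tnfrsf17 was called narrowly (1.00 ± 0.43, edgeR adjusted p = 0.0495), with 50 counts at P4 and 21 at E18. That call was lost in 25 of 33 alternatives, among them leaving out any single E18 or P4 library other than M_E18 1, M_P4 2 or F_P4 1.

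The rises moved with other markers, whose part in them was not tested. Per 1000 CPM of microglial markers, Tnf stood at a median of 9.91 CPM at P4 (7.10 to 10.5) and 8.15 CPM at E18 (3.80 to 14.1), so on that scale the stages overlap. Tnfrsf1b had medians of 20.9 and 26.9 CPM per 1000 CPM of these markers at P4 and E18, and Tnfrsf1a 17.1 and 26.5 CPM. The summed level of 9 neutrophil markers had a median of 1334 CPM at P4 (312 to 8637) and of 301 CPM at E18 (197 to 1533). That of 5 monocyte markers was 265 CPM at P4 and 437 CPM at E18. F13a1, which is on this list and on that of border macrophages, had medians of 76.6 CPM at P4 and 212 CPM at E18. The 6 border macrophage markers summed to a median of 912 CPM at P4 (352 to 1588) and 656 CPM at E18 (281 to 1591).

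Genes around the receptors rose more often than they fell, at a step where 25.5% of all tested genes were called higher and 22.7% lower. Of 28 tested adaptors, ligases and kinases 15 rose, 1 fell and 12 did not pass, with a median log2 fold of 0.53 against 0.03 over all genes. Casp8, the initiator caspase of death receptor signals, rose by 1.56 ± 0.15, and Cflar, its inhibitor, by 1.66 ± 0.20. Birc3, a ubiquitin ligase of the TNFR1 complex, rose by 1.79 ± 0.24, while Traf4 fell by 1.796. Of 14 tested genes for TNF processing and mRNA decay 9 rose and 5 did not pass (median 0.62). They include Adam17, the protease that sheds TNF from the cell surface, at 1.04 ± 0.14, and Zfp36, whose protein binds Tnf mRNA and speeds its decay, at 1.85 ± 0.23. Of 24 genes that TNF is known to induce 17 rose and 7 did not pass (median 0.85), Cxcl10 by 2.24 ± 0.28 and Il1b by 2.25 ± 0.28. Without the libraries of over 10% Ttr the counts of rises were 12, 6 and 14, and the share of all genes in that fit is not given here. Of the other superfamily ligands 2 of 5 tested rose, Tnfsf10 (TRAIL) by 2.12 ± 0.34 and Tnfsf18 by 1.95 ± 0.49. Of 15 other receptors tested 6 rose and none fell.

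**Figure D2:**
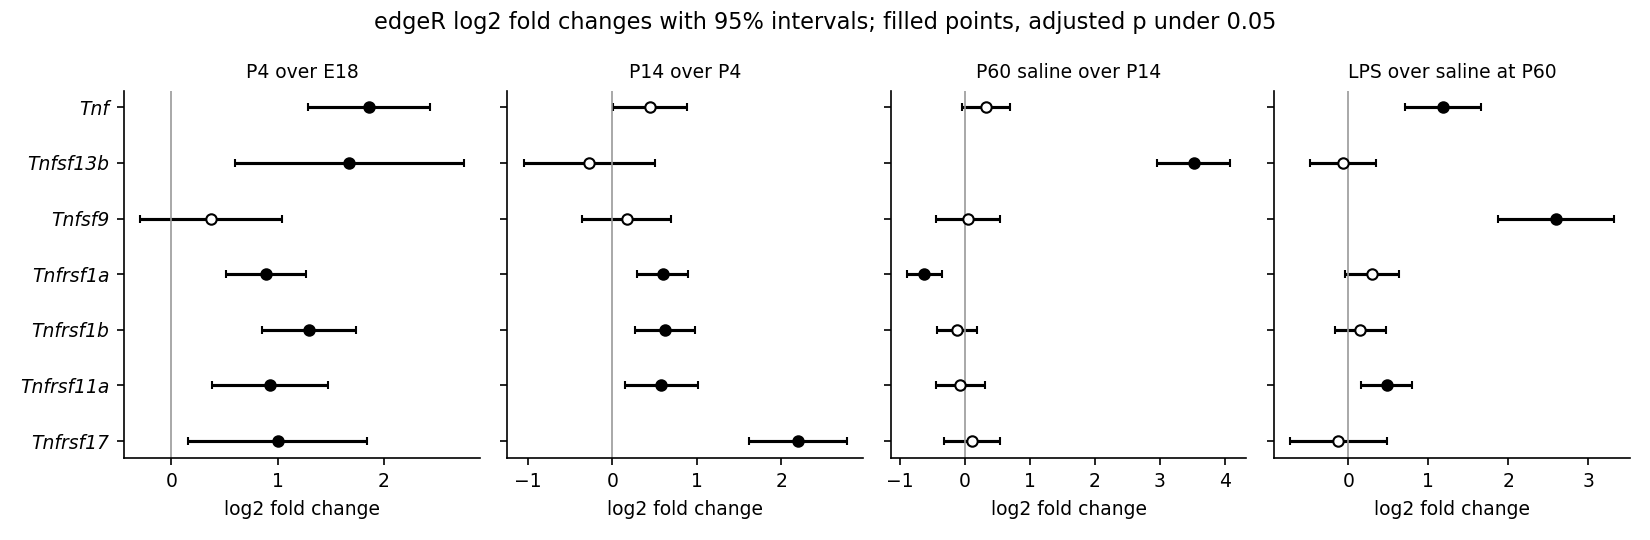
Log2 fold changes (horizontal axes) of the 7 tested genes in 4 comparisons with 95% intervals; filled points passed an adjusted p of 0.05. Receptors lie right of 0 in the first 2 panels, Tnfsf13b stands alone at 3.53 in the panel of P60 over P14, and Tnfsf9 and Tnf lead the LPS panel.

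From P4 to P14 the members that rose were the receptors. Tnfrsf17, Tnfrsf1a, Tnfrsf1b and Tnfrsf11a were called higher and no member lower, 4 of 7 tested, beside 20.6% of all tested genes called higher and 20.8% lower. Tnfrsf17 stood apart in size. It had 6.17 to 16.7 CPM at P14 with a median of 9.09 (n = 20), against 0.858 to 4.30 CPM with a median of 2.55 at P4 (n = 8). The lowest P14 library exceeded the highest P4 library, and the log2 fold was 2.20 ± 0.30 (edgeR adjusted p = 7.60e-08). Tnfrsf17 passed the filter on low counts only through its P14 and P60 libraries. In all 24 alternatives, a fit without that filter among them, it kept its call, between 2.08 and 2.36. The summed level of 6 B cell markers had a median of 21.2 CPM at P14 (12.6 to 28.7) and 26.4 CPM at P4 (21.03 to 38.4), most of it Cd79b. None of the 6 is particular to plasma cells, and the part of B lineage cells in the change of Tnfrsf17 was not tested. Per 1000 CPM of microglial markers Tnfrsf17 had medians of 0.389 CPM at P14 (0.228 to 0.716) and 0.191 CPM at P4 (0.0699 to 0.317), with overlap. The other receptors had lower medians at P14 on that scale. Their medians at P14 and P4 were 11.2 and 17.1 CPM for Tnfrsf1a, 14.3 and 20.9 CPM for Tnfrsf1b, and 3.85 and 5.57 CPM for Tnfrsf11a.

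The TNF receptors changed less at this step. Tnfrsf1a had 199 to 369 CPM at P14 with a median of 249, against 164 to 244 CPM with a median of 211 at P4 (0.60 ± 0.16, edgeR adjusted p = 0.00191). Tnfrsf1b had 206 to 448 CPM at P14 with a median of 340.0, against 176 to 401 CPM with a median of 254 at P4 (0.62 ± 0.18, edgeR adjusted p = 0.00460). Both pairs of ranges overlap. The call of Tnfrsf1b was lost without the first P4 date (0.46, edgeR adjusted p = 0.0633) and without the third P14 date (0.40, edgeR adjusted p = 0.0937). Tnfrsf11a changed by 0.58 ± 0.22 (edgeR adjusted p = 0.0327), and its call was lost in 15 of 24 alternatives, among them leaving out M_P4 1, M_P4 3, F_P4 1, F_P4 3 or F_P4 4.

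The ligands showed no called change between P4 and P14. Tnf had 70.9 to 200.3 CPM at P14 with a median of 138, against a median of 110.0 CPM at P4 (0.44 ± 0.22, edgeR adjusted p = 0.109). Its P14 libraries differed by date. The 8 libraries of the second date had 70.9 to 123 CPM with a mean of 92.3, while the first and the third date averaged 159.8 and 153 CPM (n = 6 each). Without the second date the change was 0.75 (edgeR adjusted p = 0.00528), and it was also called without M_P4 4 (0.60, edgeR adjusted p = 0.0373). Tnfsf13b changed by -0.28 ± 0.40 and Tnfsf9 by 0.17 ± 0.27.

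Among the adaptors, ligases and kinases 14 of 28 rose at this step, 2 fell and 12 did not pass (median 0.39, against -0.01 over all genes). All tested genes gave 20.6% higher and 20.8% lower. Map3k14, the kinase NIK of the non-canonical NF-kB pathway that BAFF and CD40 receptors use, rose by 1.97 ± 0.23, and Traf5 by 1.41 ± 0.20. Of the other receptors 6 of 15 rose, 4 fell and 5 did not pass. Tnfrsf12a, the receptor of the ligand TWEAK, rose by 2.01 ± 0.22 and Ngfr, the low-affinity neurotrophin receptor, fell by 2.38. Other ligands gave 1 rise and 3 falls of 5 tested, the processing and decay genes 5 rises of 14, and the TNF-induced genes 6 rises and 5 falls of 24.

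Between P14 and P60 with saline, Tnfsf13b and Tnfrsf1a moved apart. Tnfsf13b was the 1 member of 7 called higher, where 18.5% of tested genes were called higher, and Tnfrsf1a the 1 called lower, where 25.7% were. Tnfsf13b had 6.83 to 17.7 CPM in P60 saline libraries with a median of 12.5 (n = 12), against 0 to 2.72 CPM with a median of 0.876 at P14 (n = 20). No library of one stage reached the range of the other. The log2 fold was 3.53 ± 0.29 (edgeR adjusted p = 3.68e-13), on 283 counts at P60 and 36 at P14, and it stayed between 3.36 and 3.85 in 28 alternatives. Before P60 no library held more than 6 counts of Tnfsf13b, so it passed the filter on low counts only through P60 libraries. A fit without that filter is among the 28 alternatives. Neutrophils and monocytes are other known sources of BAFF. Their summed markers had medians of 107 and 52.2 CPM in P60 saline libraries and 233 and 85.4 CPM at P14. Among the 5 monocyte markers Ccr2 went the other way, with medians of 16.2 CPM in P60 saline libraries and 8.96 CPM at P14. F13a1, also a border macrophage marker, had 22.8 and 36.8 CPM. T and NK cell markers, 7 in the table, had medians of 13.2 CPM in P60 saline libraries and 2.23 CPM at P14. The part of these cells in the change of Tnfsf13b was not tested. Per 1000 CPM of microglial markers Tnfsf13b had medians of 0.390 CPM at P60 and 0.0351 CPM at P14.

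Tnfrsf1a had 56.1 to 225 CPM in P60 saline libraries with a median of 177, against 199 to 369 CPM with a median of 249 at P14, and the ranges overlap. It fell by 0.63 on the log2 scale (SE 0.14, edgeR adjusted p = 2.39e-04) and was called in all 28 alternatives. Tnfrsf1b, with a median of 351 CPM in P60 saline libraries and 340.0 CPM at P14, changed by -0.12 ± 0.15 (edgeR adjusted p = 0.545). It was called lower when the second saline date was left out (-0.46, edgeR adjusted p = 0.0487). Tnfrsf11a changed by -0.07 ± 0.19, Tnfrsf17 by 0.11 ± 0.22 and Tnfsf9 by 0.05 ± 0.25. Tnf changed by 0.32 ± 0.19 (edgeR adjusted p = 0.168). It was called in 5 of 28 alternatives, without F_P60_Sal 7 (0.46), without M_P60_Sal 3 (0.48), without the first or the third P14 date (0.54 each) and without the third saline date (0.67, edgeR adjusted p = 0.00571).

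At this step the adaptors, the processing genes and the other receptors fell more often than they rose. All tested genes gave 18.5% higher and 25.7% lower. Of the adaptors, ligases and kinases 4 rose, 12 fell and 12 did not pass (median -0.29, against -0.06 over all genes). Map3k14 fell by 1.52 and Ripk1, the kinase that links TNFR1 to survival or death, by 0.85, while Cyld, a deubiquitinase that limits TNFR1 signalling, rose by 0.82 ± 0.11. Of the processing and decay genes 1 rose, 7 fell and 6 did not pass. Zfp36 rose by 0.97 ± 0.15, and Rhbdf2, the iRhom2 partner that brings ADAM17 to the cell surface, fell by 1.77. Of the other receptors 2 rose, 7 fell and 6 did not pass, with Tnfrsf12a falling by 2.33. Of the TNF-induced genes 5 rose, 9 fell and 10 did not pass, with a median of -0.05 close to that of all genes, the NF-kB subunits Relb and Nfkb2 falling by 1.77 and 1.88. Of the other ligands 3 rose, 1 fell and 1 did not pass. They include Tnfsf13, the gene of APRIL and so of the second ligand of BCMA, at 0.60 ± 0.22 with 8.80 ± 4.33 CPM in P60 saline libraries and 5.59 ± 1.60 CPM at P14.

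Over the whole span from E18 to P60 with saline, 6 of 7 members were higher and none lower, where 31.4% of tested genes were higher and 34.8% lower. The log2 folds were 4.92 ± 0.46 for Tnfsf13b, 3.31 ± 0.38 for Tnfrsf17 and 2.63 ± 0.29 for Tnf. Tnfrsf1b gained 1.799 ± 0.22, Tnfrsf11a 1.43 ± 0.27 and Tnfrsf1a 0.86 ± 0.18. These 6 were called in all 36 alternatives. The summed microglial markers were also higher at P60, and per 1000 CPM of them 4 of the 6 had lower medians in P60 saline libraries than at E18. These medians, in P60 saline and E18 libraries, were 4.92 and 8.15 CPM for Tnf, 10.5 and 26.9 CPM for Tnfrsf1b, 5.60 and 26.5 CPM for Tnfrsf1a, and 2.83 and 5.19 CPM for Tnfrsf11a. Tnfsf13b and Tnfrsf17 had higher medians on that scale, at 0.390 and 0.324 CPM in P60 saline libraries and 0.0797 and 0.245 CPM at E18. The ranges overlap for both, and widely for Tnfrsf17, with 0.135 to 1.01 CPM in P60 saline libraries and 0.0797 to 0.731 CPM at E18. For Tnfsf13b they were 0.162 to 0.528 CPM and 0 to 0.284 CPM. The E18 values rest on 21 counts of Tnfrsf17 and 7 of Tnfsf13b. Tnfsf9 changed by 0.59 ± 0.32 (edgeR adjusted p = 0.104) and was called in 4 alternatives, one of them without M_E18 4 (0.72, edgeR adjusted p = 0.0408). DESeq2 size factors move the median of all genes at this comparison from -0.08 to -0.26, at P4 over E18 from 0.03 to -0.10 and at P14 over P4 from -0.01 to -0.12, so changes near these shifts depend on the scaling. The comparisons between stages share libraries and are not independent of each other.

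The balance of the TNF receptors differed between P60 and P14. The ratio of Tnfrsf1b to Tnfrsf1a counts within a library does not depend on library scaling. Its median was 1.08 at E18, 1.19 at P4, 1.31 at P14 and 1.88 in P60 saline libraries. At P60 with saline the 12 libraries lay between 1.53 and 2.14, against 0.991 to 1.70 in the 20 libraries of P14, with an overlap at the edges. The mean log2 ratio was 0.90 ± 0.14 at P60 with saline and 0.38 ± 0.21 at P14 (SD), a difference of 0.52. A two-sided permutation test with 100000 resamples gave p = 2.00e-05, the smallest it can give, and 8.00e-05 after Benjamini-Hochberg adjustment over 4 comparisons. The permutations shuffle single libraries and take no account of the dates, none of which is shared by stages. P14 ratios ran from 1.03 to 1.46 on the second date and from 1.34 to 1.70 on the third. The first saline date had 1.76 and 1.53. No date was left out in turn for the ratio. P14 over P4 differed by 0.06 (exact permutation p = 0.494, adjusted 0.494). P4 over E18 differed by 0.41 (exact permutation p = 0.0768, adjusted 0.154), and by 0.12 without the libraries of over 10% Ttr. LPS over saline at P60 differed by -0.10 (permutation p = 0.427, adjusted 0.494).

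**Figure D3:**
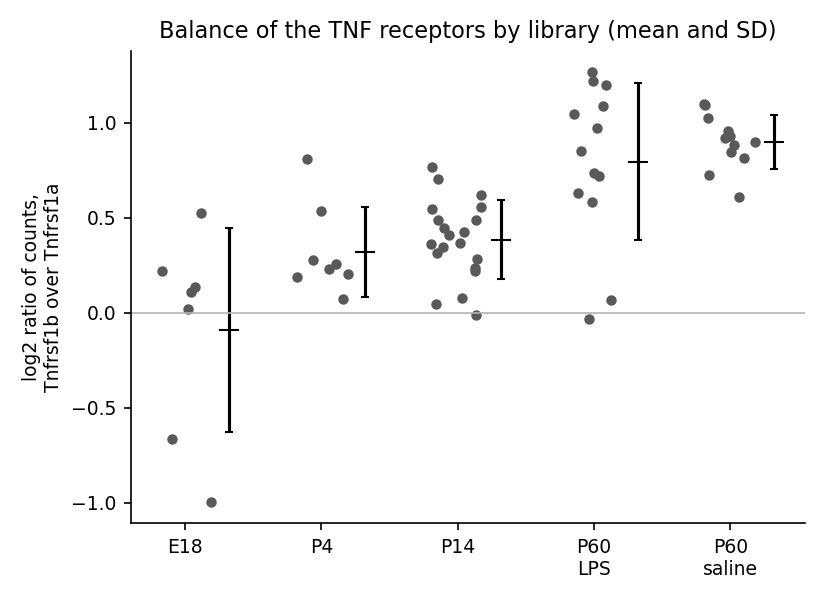
Log2 ratio of Tnfrsf1b to Tnfrsf1a counts (vertical axis) in each library by stage and treatment, with mean and SD beside the points; 0 means equal counts. The saline libraries of P60 lie higher than most P14 libraries, and 2 LPS libraries lie near 0.

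Tnf and Tnfsf9 and, less firmly, Tnfrsf11a rose with LPS at P60. These 3 of 7 tested members were called higher in the mean of the sexes and none lower, where 10.5% of the 10538 tested genes were called higher and 3.95% lower. Tnf had 164 to 891 CPM in LPS libraries with a median of 289.6 (n = 13), against 85.3 to 268 CPM with a median of 178 in saline libraries (n = 12). The groups overlap below 268 CPM, and the log2 fold was 1.18 ± 0.24 (edgeR adjusted p = 7.71e-04). Tnfsf9 had 4.78 to 118 CPM in LPS libraries with a median of 20.3, against 3.42 to 8.81 CPM with a median of 4.99 in saline libraries. Of the 13 LPS libraries only F_P60_LPS 5 and F_P60_LPS 6, at 4.78 and 6.42 CPM, fell within the saline range. The log2 fold of Tnfsf9 was 2.59 ± 0.37 (edgeR adjusted p = 4.96e-06), the largest of the 7 genes. Tnfsf9 passed the filter on low counts only through its LPS libraries, since its saline level was too low for it. The calls of Tnf and Tnfsf9 held in all 41 alternatives, a fit without that filter among them.

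Tnfrsf11a had 57.1 to 157 CPM in LPS libraries with a median of 123, against 31.2 to 117 CPM with a median of 93.5 in saline libraries. It rose by 0.48 ± 0.16 (edgeR adjusted p = 0.0472), close to the threshold, and was called in 22 of 41 alternatives. Leaving out any one of F_P60_LPS 1, 3, 5 or 6, M_P60_LPS 2, 3 or 7, F_P60_Sal 1 or 3, or M_P60_Sal 1, 3 or 4 ended the call, with adjusted p up to 0.116. It also ended without the third saline date (0.32, edgeR adjusted p = 0.206), the first saline date (0.50, adjusted p = 0.0660), the first LPS date (0.41, adjusted p = 0.162) or the third LPS date (0.45, adjusted p = 0.164). The TNF receptors did not pass the test. Tnfrsf1a changed by 0.29 ± 0.17 with a 95% interval from -0.04 to 0.63, and Tnfrsf1b by 0.15 ± 0.16 with an interval from -0.17 to 0.47. Without the first LPS date Tnfrsf1a was called (0.56, edgeR adjusted p = 0.0369). Tnfsf13b changed by -0.06 ± 0.21 and Tnfrsf17 by -0.12 ± 0.31.

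The LPS libraries carried 3 dates, and the second, with 3 male libraries and 1 female, stood far above the others for both ligands. Tnf averaged 224 CPM on the first LPS date (n = 5), 708 CPM on the second (n = 4) and 277 CPM on the third (n = 4). The lowest library of the second date, at 476 CPM, exceeded every other LPS library. Tnfsf9 averaged 19.5, 78.7 and 12.6 CPM on the 3 dates. Tnfrsf11a did not follow this order, with 127, 95.9 and 122 CPM. Without the second date Tnf rose by 0.63 ± 0.20 (edgeR adjusted p = 0.0436), Tnfsf9 by 1.73 ± 0.27 (edgeR adjusted p = 5.56e-05) and Tnfrsf11a by 0.59 ± 0.17 (edgeR adjusted p = 0.0265). Saline libraries varied as well, and Tnf averaged 212, 201 and 101 CPM on their 3 dates (n = 2, 6 and 4).

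**Figure D4:**
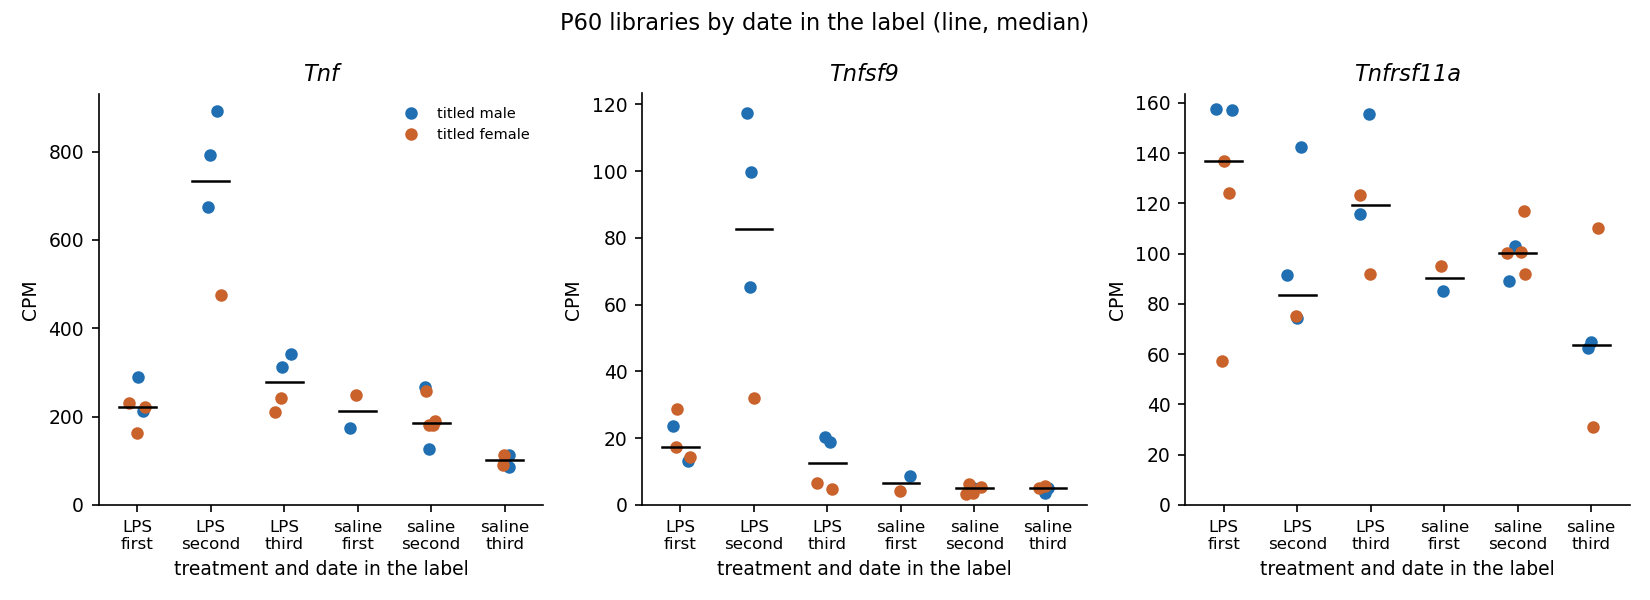
CPM of Tnf, Tnfsf9 and Tnfrsf11a (vertical axes) in P60 libraries by treatment and by the date in the label; points are libraries, blue titled male and orange titled female, and lines are medians. The second LPS date holds the highest Tnf and Tnfsf9 values, from 476 CPM and 31.96 CPM upwards, but not the highest of Tnfrsf11a.

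Markers of other myeloid cells moved with these values, and their part in the results was not tested. The 9 neutrophil markers, all present in LPS and in saline libraries, summed to a median of 733 CPM in LPS libraries (366 to 5935) and 107 CPM in saline libraries (21.6 to 419). By LPS date the medians were 733, 3707 and 535 CPM. The 5 monocyte markers had medians of 109 CPM in LPS libraries (71.6 to 637) and 52.2 CPM in saline libraries (34.9 to 118), and 109, 326 and 97.7 CPM by LPS date. Within the second LPS date M_P60_LPS 3, 4 and 5 had 5935, 5008 and 2406 CPM of neutrophil markers, above every other P60 library. F_P60_LPS 4 had 603 CPM of them, a level also met on the other dates, and 476 CPM of Tnf, the lowest Tnf of that date. Per 1000 CPM of microglial markers Tnf had a median of 11.1 CPM in LPS libraries (7.33 to 52.2) and 4.92 CPM in saline libraries (3.25 to 8.18).

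**Figure D5:**
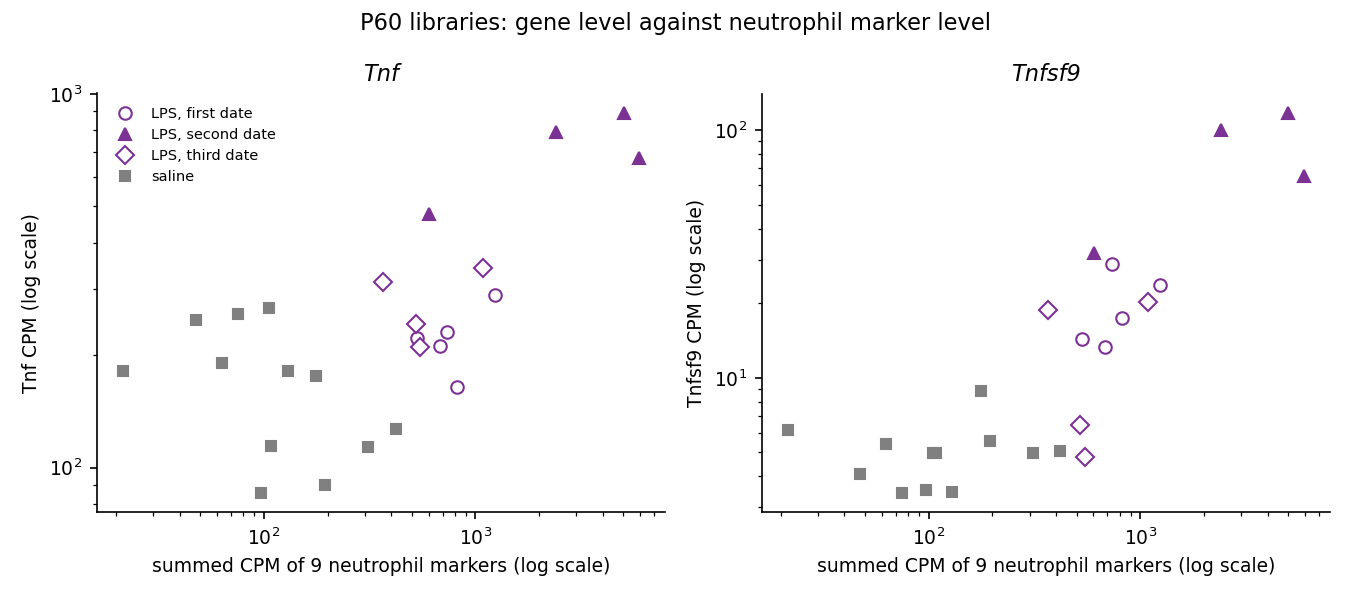
Level of Tnf and Tnfsf9 (vertical log axes, CPM) against the summed CPM of 9 neutrophil markers (horizontal log axes) in P60 libraries; purple symbols are LPS libraries by date, filled for the second, and grey squares are saline libraries. Filled triangles hold the highest values of both genes, at neutrophil marker sums of 603 to 5935 CPM.

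Tnfsf8 was too sparse for a test and is given as counts. There were 25 counts in 8 of 13 LPS libraries and 17 counts in 8 of 12 saline libraries at P60. Earlier there were 0 counts in the 7 E18 libraries, 3 in the 8 P4 libraries and 5 in the 20 P14 libraries. Pooled over the group the level was 1.82 CPM with LPS and 0.755 CPM with saline. The 0 counts at E18 allow up to 0.199 CPM (3 counts over the group, counting error only). The pooled level was 9.19-fold that limit in LPS libraries and 3.80-fold in saline libraries. These ratios leave out the counting error at P60 and are no lower bounds. Of the 25 counts with LPS 18 came from the second date. In LPS libraries the 3 males of the second date had 9.34, 5.20 and 5.48 CPM, and the other 10 libraries had 0 to 3.73 CPM.

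Genes around these members rose with LPS too, among them the receptor of the Tnfsf9 product. Tnfrsf9, which encodes CD137, had 0 to 13.4 CPM in LPS libraries with a median of 3.55, and 0 to 3.47 CPM with a median of 0 in saline libraries (log2 fold 3.95 ± 0.64, edgeR adjusted p = 3.14e-05). These were 81 counts with LPS and 7 with saline. Like Tnfsf9, it passed the filter on low counts only through its LPS libraries. Its result in a fit without that filter is not given here. The 7 T and NK cell markers summed to a median of 47.3 CPM in LPS libraries (12.3 to 102) and 13.2 CPM in saline libraries (8.05 to 54.9). Most of that sum in LPS libraries was Gzmb, with medians of 38.2 CPM with LPS and 5.66 CPM with saline. Gzma (7.76 and 3.75 CPM), Klrb1c (3.76 and 1.95 CPM), Nkg7 (2.39 and 1.75 CPM) and Cd3g (0.868 and 0 CPM) also had higher medians with LPS. Cd3d had a median of 0 CPM with both, and Cd3e had 0 counts with LPS and 5 with saline. The part of T and NK cells in the rise of Tnfrsf9 was not tested. Of 10 other receptors tested 5 rose, 1 fell and 4 did not pass (median 0.50, against -0.07 over all genes). All tested genes gave 10.5% higher and 3.95% lower, to be read beside this and the next counts. Fas, a death receptor, rose by 3.05 ± 0.25 and Cd40 by 3.92 ± 0.35, while Tnfrsf19 fell by 1.44. Of 3 other ligands tested Tnfsf10 rose (1.71 ± 0.20). Of 25 adaptors, ligases and kinases 8 rose and 17 did not pass (median 0.19), among them Traf1 at 2.70 ± 0.34 and Birc3 at 1.85 ± 0.19. Of 14 processing and decay genes 3 rose and 11 did not pass (median 0.10), and Rhbdf2 rose by 1.55 ± 0.27. Of 23 TNF-induced genes 20 rose and 3 did not pass (median 1.32), Cxcl10 by 3.92 ± 0.31, Vcam1 by 2.93 ± 0.24 and Ptgs2, the inducible cyclooxygenase, by 3.47 ± 0.29. Most of these genes are also known to respond to LPS directly. Without the second LPS date 3 other receptors, 1 processing gene and 16 TNF-induced genes rose, and the share of all genes in that fit is not given here.

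The remaining known partners were scarce. Tnfsf11, which encodes RANKL, the ligand of RANK, had 4 counts in all, none of them at P14 or P60. Tnfrsf11b, which encodes the soluble RANKL decoy osteoprotegerin, had 0 counts in LPS libraries and 7 in saline libraries. Tnfrsf13c, the BAFF receptor proper, had 1 count in LPS libraries and 3 in saline libraries. Tnfrsf13b, a further receptor of BAFF, had medians of 1.59 CPM with LPS and 1.25 CPM with saline. Tnfrsf8, which encodes CD30, had 0 counts with LPS and 3 with saline.

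By sex, the LPS response passed the test more widely in libraries titled male. In males Tnfsf9 rose by 3.32 ± 0.52 (edgeR adjusted p = 3.08e-05), Tnf by 1.83 ± 0.37 (edgeR adjusted p = 6.43e-04) and Tnfrsf11a by 0.78 ± 0.24 (edgeR adjusted p = 0.0208), 3 of 7 members beside 11.9% of all genes called higher. The male Tnf values ran from 212 to 891 CPM with LPS (median 342, n = 7), and were 175, 268, 85.3, 114 and 127 CPM with saline. In females Tnfsf9 rose by 1.86 ± 0.54 (edgeR adjusted p = 0.0369), 1 of 7 members beside 4.17% of all genes. Female Tnf ran from 164 to 476 CPM with LPS (median 226, n = 6) and from 89.8 to 257 CPM with saline (median 182, n = 7), and changed by 0.54 ± 0.33 (edgeR adjusted p = 0.510). The call of Tnfsf9 in females was lost in 19 of 29 alternatives, among them leaving out any single female saline library or F_P60_LPS 1, 2 or 4. With the replicate block, whose numbers do not pair these libraries, it was 1.69 (edgeR adjusted p = 0.0909). The call of Tnfrsf11a in males was lost in 5 of 28 alternatives, without M_P60_Sal 3, without M_P60_Sal 4, without the third saline date (0.58, edgeR adjusted p = 0.122), without the first LPS date (0.69, edgeR adjusted p = 0.0624) and without the third LPS date (0.76, edgeR adjusted p = 0.0631).

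The difference between the sexes in the LPS response was not past the threshold for any member. For Tnf the response of males minus that of females was 1.29 ± 0.49 (unadjusted p = 0.0132 and edgeR adjusted p = 0.137), and for Tnfsf9 1.46 ± 0.74 (edgeR adjusted p = 0.257). At an unadjusted p under 0.05 Tnf alone of the 7 members passed, as did 2255 of all 10538 tested genes. limma-voom with sample weights called 2 members, Tnf (1.33, adjusted p = 0.0416) and Tnfrsf1b (0.78, adjusted p = 0.0268). Its number of calls over all genes is not given here. Over all genes edgeR called 0.883%. The second LPS date held 3 of 7 male and 1 of 6 female LPS libraries, and without it the responses of Tnf were 1.01 in males and 0.26 in females, those of Tnfsf9 1.89 and 1.58. Males against females within LPS libraries differed by 1.01 ± 0.34 for Tnf and 1.62 ± 0.46 for Tnfsf9 without passing (edgeR adjusted p = 0.172 and 0.120), where 0.142% of all genes were called. Both had an unadjusted p under 0.05, as did 1710 of all 10538 tested genes. DESeq2 called Tnfsf9 (1.66, adjusted p = 0.0496), among 121 genes in all. At E18, P4, P14 and P60 with saline no member was called between the sexes, and 0.0722%, 0.0433%, 0.0433% and 0.0433% of all genes were. None of the 7 had an unadjusted p under 0.05 there. At E18 Tnfrsf11a changed by -0.53 ± 0.41 in edgeR, and it was called lower in males by limma-voom (-1.17, adjusted p = 0.0240) and without M_E18 2 (-1.53, edgeR adjusted p = 0.00687). M_E18 2 had the highest male value, 90.9 CPM. The lowest, 15.6 and 7.30 CPM, came from M_E18 3 and M_E18 4, both of over 10% Ttr, and M_E18 4 had 0 Y-linked counts. This difference therefore cannot be told apart from those 2 libraries. The change of the sex difference with age called no member and 0% of genes, with 1723 genes at an unadjusted p under 0.05 and 0 called by DESeq2.

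Likeness of pattern was measured by Pearson's r between the 10 group means of log2 CPM, over 12244 genes, as a description in which the group means share libraries and depth. For Tnf the nearest genes were Gbp7 (r = 0.988), Itgb3 (0.980) and Ccl3 (0.979). Tnfsf9 lay nearest to Il12b, a subunit gene of interleukin-12 and interleukin-23 (r = 0.980), Slc39a14 (0.963) and Niacr1 (0.956). Tnfsf13b lay nearest to B3galt5 (r = 0.982), Slamf9 (0.972) and Endod1 (0.966), and Tnfrsf17 to Ang (0.972), AF251705 (0.970) and St3gal6 (0.969). For Tnfrsf1a they were Itpkc (r = 0.980), Lrrc33 (0.976) and Neurl1a (0.961). Tnfrsf1b, nearest to Plcg2, Sykb and Tacc1 (r of 0.993 to 0.994), had 300 genes above an r of 0.95, against 11 for Tnfrsf1a and 6 for Tnfsf9. Tnfrsf11a, with 188 such genes, was nearest to Pik3c2a, Ddx5 and Fam48a (r of 0.989 to 0.994).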

How the data were processed

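The authors deposited whole-number read counts per transcript for each library. Per the submitters' processing notes, CASAVA 1.8.2 and edgeR were used and the genome was mm9. The sources used here name no aligner or counting program and do not state how strand was used; the kit was stranded per the labels' protocols. Of 28644 rows, 1 per gene symbol was kept: the row marked in the table for 21988 symbols and the row with most counts for 881, Tnf among these. Each of the 8 genes had a single row. CPM were computed over the rows kept. Transcript lengths were those of GENCODE vM21. Its build, GRCm38, differs from that of the counts, and gene coordinates are left out. Promoters came from RefSeq on GRCm38.p6.

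Groups were sex by title, stage and treatment. Title and sex characteristic differ for 10 libraries. There were 2 fits in edgeR 4.0.16 (default filter by group, TMM, robust quasi-likelihood F test, two-sided, Benjamini-Hochberg, 0.05): 47 libraries without LPS (13853 genes) and 25 libraries of P60 (10538 genes). An SE is the log2 fold divided by the root of F. The method was tested on simulated data. The members and gene lists were chosen with earlier results of these data known. The named genes are all members, up to 3 called genes of smallest p per list and direction, and for each tested member the 3 genes of highest r with at least 10 CPM in a group. Partner genes and libraries singled out were chosen after values were seen.

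Replicate numbers from the titles were taken as pairing where every same-numbered pair of libraries passed a fixed minimum r between deviations. They paired the sexes at P4 (4 of 4 shared a date, r of 0.41 to 0.57). Females at P4 and E18 also passed (3 numbers, 0 shared a date, r of 0.17 to 0.49), and other groups did not. At P14 all 10 same-numbered pairs of the sexes shared a date. Their r ran from -0.28 to 0.52 with a mean of 0.29, against -0.03 for other numbers. No library was a copy of another (chi-square per gene 1.96 to 101 over 178 pairs). Alternatives were DESeq2 1.42.0, its size factors, limma-voom 3.58.1, filters, transcript rows, sex labels, the replicate block, single libraries, libraries of over 10% Ttr and, added after seeing the data, the libraries of each date in the descriptions. The 95% intervals of log2 folds come from the SE of the fit and carry the variation between libraries, whereas floors for 0 counts cover counting error only.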

Additional observations from a re-analysis of the deposited data

Results flagged for a closer look

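Among 70 sets of 1 gene in 1 group of 4 to 10 libraries, 9 held a library whose gap to its nearest neighbour exceeded the 95% critical value of Dixon's test, where chance flags about 1 in 20. Tnf stood out in F_P60_LPS 4 at 476 CPM, with the next female LPS library at 243 CPM, and this was the 1 female library of the second LPS date. In F_P60_Sal 6, the library with the lowest total and over 10% Ttr, Tnfrsf1b was at 115 CPM, with the next at 294 CPM, and Tnfrsf11a at 31.2 CPM, with the next at 91.8 CPM. Tnfsf9 was at 8.81 CPM in M_P60_Sal 1. The other 5 concern Tnfsf8 and rest on a handful of counts each: 2.05 CPM in F_P14 5, 0.717 CPM in F_P4 3, 0.325 CPM in M_P4 4, 3.73 CPM in F_P60_LPS 2 and 5.69 CPM in F_P60_Sal 5.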

How the results depend on the processing

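No result changed its direction past a threshold. The number of members called at P4 over E18 was 3 without the libraries of over 10% Ttr and 3 without the fourth E18 date, against 6. At P14 over P4 it was 2 without the first P4 date and 2 without the third P14 date, against 4. In LPS females it was 0 with no filter, 0 with at least 1 CPM in as many libraries as the smallest group, 0 with limma-voom, 0 with the replicate block, 0 without the libraries of over 10% Ttr, 0 without any 1 saline date or the first LPS date, and between 0 and 1 with a single library left out, against 1. limma-voom called 2 members for sex by LPS, and it called 1 between the sexes at E18, where leaving out single libraries gave 0 to 1 and leaving out the third E18 date gave 1. DESeq2 called 1 between the sexes with LPS, among 121 genes in all. Over all genes limma-voom called 2391 with LPS, against 1518. The cause of these differences was not tested.

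The replicate block, which pairs libraries by number, left 6 members called at P4 over E18 and 0 between the sexes at P4, and it ended the calls of Tnfrsf11a at P14 over P4 (0.56, edgeR adjusted p = 0.0796) and of Tnfsf9 in LPS females. Single P14 libraries were not left out in turn. Depth limits Tnfsf8 and, before P60, Tnfsf13b.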

Other observations

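The female LPS libraries F_P60_LPS 5 and F_P60_LPS 6, both of the third LPS date, were singled out after their values were seen. They had the lowest Tnfsf9 of the LPS libraries, at 4.78 and 6.42 CPM. Their ratios of Tnfrsf1b to Tnfrsf1a counts were also the lowest, at 1.05 and 0.977, while the other 11 LPS libraries ran from 1.499 to 2.41. The male libraries of the same date, M_P60_LPS 6 and M_P60_LPS 7, had ratios of 1.96 and 1.66, and 20.3 and 18.8 CPM of Tnfsf9.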
